A study of Mus musculus with 6 samples.

Results

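The clustered protocadherins were followed in clear cells taken from 3 regions of the mouse epididymis. Rows were chosen by symbol, as every row of the complete deposited table whose name begins with Pcdha, Pcdhb or Pcdhg followed by the numbering of that gene cluster, which gave 25 of 37578 rows. Of these, 2 belong to the alpha cluster, 22 to the beta cluster and 1 to the gamma cluster, and 24 of the 25 had at least 1 read in some library. The family was picked with earlier results of these data in view, so its folds and p-values between regions describe these rows and are no independent support for a regional difference. Clear cells are the epithelial cells that acidify the lumen of the epididymis, the duct where sperm mature and are stored. They were purified by 2 rounds of sorting for EGFP from untreated transgenic mice aged 12 weeks, in which the promoter of ATP6V1B1, a subunit gene of the vacuolar proton pump, drives EGFP; all 3 groups carry this transgene. The groups were the caput at the proximal end of the duct, the corpus in its middle and the cauda at the distal end, with 2 libraries each and 12 epididymides pooled per library. Whether the pools of a region came from separate mice is not said in the labels, and the p-values therefore reflect the spread between libraries, which may be technical.

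Clustered protocadherins are adhesion proteins of the cadherin superfamily, best known from neurons. In neurons each cell transcribes its own combination of isoforms, chosen from a row of alternative promoters with the help of the DNA-binding protein CTCF and the cohesin ring, and cells that carry matching isoforms recognise each other by binding of like to like. An alpha or gamma isoform joins its own variable exon, which encodes the extracellular and membrane-spanning part, to constant exons that all isoforms of its cluster share and that encode a common cytoplasmic tail, whereas each beta gene is read on its own and has no constant exons.

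This layout limits what the rows can resolve. The deposited annotation held 22 separate beta rows, but the alpha cluster was present as Pcdha4 (ENSMUSG00000007440, 24675 bases) and Pcdha3 (ENSMUSG00000091969, 2437 bases), and the gamma cluster as Pcdhga9 (ENSMUSG00000023036, 28969 bases) alone. In the GENCODE annotation at hand, which is of another build, the 14 alpha gene models each span 5206 to 7535 exon bases and the 22 gamma models 4615 to 7627. The Pcdha4 and Pcdhga9 rows were thus longer than any isoform of their cluster, and they are read below as merged rows of the alpha and gamma clusters. The exons of all models together cover 40755 bases for alpha and 70891 for gamma there, more than the merged row of either cluster. Some isoforms may therefore lie outside these rows, and alpha and gamma levels below are those of the rows. Which isoforms they hold is not given in the sources used here, and reads of variable and constant exons cannot be separated. In the annotation at hand the identifier of the Pcdha4 row carries the symbol Pcdha11, and that of the Pcdhga9 row the symbol Pcdhgc4, a C-type isoform. The C-type isoforms, which lie at the end of the alpha and gamma clusters (Pcdhac1, Pcdhac2, Pcdhgc3, Pcdhgc4 and Pcdhgc5), thus had no row under their own symbols. Any of their reads in the merged rows could not be told from those of other isoforms.

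Each library had from 18887128 to 24700717 reads in genes, and the clustered protocadherins took few of them. The 25 rows held 4045 and 3106 reads in the caput libraries, 510 and 530 in corpus, then 314 and 368 in cauda. Reads without a unique position, 33.1% to 38.6% of all records, were not counted, which touches a family of similar genes. In the annotation at hand, a median of 3.48% of the windows of 50 bases along a beta transcript recur exactly in another gene's transcript, from 0% for Pcdhb1 to 12% for Pcdhb12, whose closest partner is Pcdhb11. In the same annotation the transcripts of the neighbours Pcdhb21 and Pcdhb22 overlap and a gene lies antisense to Pcdhb12, and the reads were counted without regard to strand, so those values carry that uncertainty. A further 3 genes span all 22 beta genes on the same strand there without sharing an exon base with them. Foxi1, the transcription factor that specifies proton-secreting cells, was detected in all libraries, at 2390 and 2190 CPM (the count as a share of the library total after TMM scaling) in caput, 384 and 388 in corpus, then 151 and 203 in cauda.

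The summed beta rows and the gamma row were both several times higher in caput than in the other regions, and the alpha rows had few reads in any library. The 22 beta rows together measured 53.6 and 51.1 CPM in the caput libraries, 10.8 and 10.9 in corpus, then 9.08 and 9.27 in cauda. The caput libraries lay well above the other 4, while corpus exceeded cauda by little. Caput averaged 52.3 ± 1.79 CPM, corpus 10.9 ± 0.0625 and cauda 9.17 ± 0.136 (SD, n = 2), so the summed beta level in caput was 4.82-fold that of corpus and 5.7-fold that of cauda. Scaling by library totals raised the log2 ratio of caput to cauda from 2.51 to 3.37 and the median of all genes tested from 0.04 to 0.9, so these changes are relative to the bulk of genes. Because each library is a bulk sample, fewer expressing cells and less RNA per cell cannot be told apart.

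The gamma row, Pcdhga9, gave a graded order. It measured 65.1 and 54.6 CPM in the caput libraries, 17.6 and 16 in corpus, then 9.19 and 10.7 in cauda, with no overlap between any of the regions. Caput (59.8 ± 7.41 CPM, SD, n = 2) was 3.56-fold corpus (16.8 ± 1.19), and corpus was 1.69-fold cauda (9.94 ± 1.06). For comparison, the summed beta level in corpus was 1.18-fold that of cauda. Gamma reads per beta read came to 1.21 and 1.07 in caput, 1.63 and 1.47 in corpus, then 1.01 and 1.15 in cauda, so both corpus libraries lay above the other 4; this difference was not tested.

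**Figure D1:**
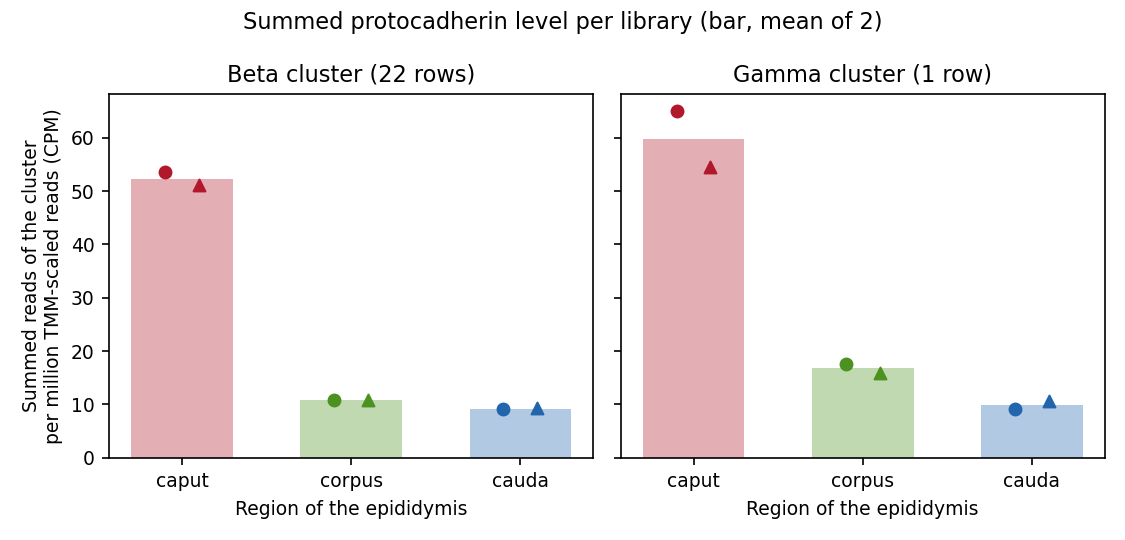
Summed level of the beta cluster (22 rows) and the gamma cluster (1 row) in caput, corpus and cauda, in CPM. Circles are libraries numbered 1, triangles libraries numbered 2 and bars their means; the beta mean falls from 52.3 in caput to 10.9 and 9.17, and the gamma mean from 59.8 to 16.8 and 9.94.

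Pcdha4, the merged alpha row, had 13 reads in caput 2, 2 in corpus 1, 2 in cauda 2 and 0 in the remaining 3 libraries. Pcdha3 had 0 reads in all 6. The alpha rows thus held at most 0.543% of the reads in all clustered protocadherin rows of any library, against 37.8% to 49.7% for beta and 50.3% to 61.8% for gamma. Reads of any isoform outside these rows would be missing from the shares. With caput 1 at 0 and caput 2 at 13 reads, no regional order can be read for the alpha cluster at this depth.

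Within the beta cluster a few genes carried most of the signal. On the deposited RPKM scale, which divides reads by gene length and allows levels to be compared between genes as far as the lengths hold, Pcdhb9, Pcdhb17, Pcdhb14 and Pcdhb12 held the 4 highest ranks of the cluster in each region and together 56% to 61.3% of the summed beta RPKM in each library. Pcdhb9 averaged 3.01 ± 0.26 RPKM in caput (SD, n = 2), Pcdhb17 2.47 ± 0.24, Pcdhb14 2.24 ± 0.457 and Pcdhb12 1.1 ± 0.276. The difference between Pcdhb17 and Pcdhb14 was within the spread of their libraries, and Pcdhb12 did not separate from the gene ranked next in caput, Pcdhb20 (1.07 ± 0.185 RPKM). The ranking of Pcdhb14 rests on its deposited length of 3437 bases. Its exon model in the annotation at hand has 8695 bases, which would put it at 0.885 in caput and at the fifth rank of the cluster, below Pcdhb12 and Pcdhb20, and the model of Pcdhb17 (4660 against 3268 bases) would put that gene at 1.73, still at the second rank; this was looked at after seeing the data. All of these are low levels: the highest value of a beta gene in any library was 3.19 RPKM, for Pcdhb9 in caput 1.

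The order of the beta genes was much the same in every region. Spearman's rho between the RPKM values of the 22 beta genes in 2 libraries ranged from 0.706, between the cauda libraries, to 0.915, between caput 2 and corpus 1; the libraries share the same gene lengths and sequences, and this is a description. Pcdhb9 led in caput and cauda, and Pcdhb17 led in corpus (0.552 ± 0.0389 RPKM, against 0.442 ± 0.117 for Pcdhb9, SD, n = 2), a difference of about the spread of Pcdhb9. At the low end, Pcdhb1, Pcdhb2 and Pcdhb13, with 4, 6 and 12 reads over the 6 libraries, were the 3 lowest. All 22 beta genes had a read in caput 1 and 21 in caput 2, against 19 and 17 in corpus and 15 and 18 in cauda; a gene missing from a library here lies below what this depth detects.

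**Figure D2:**
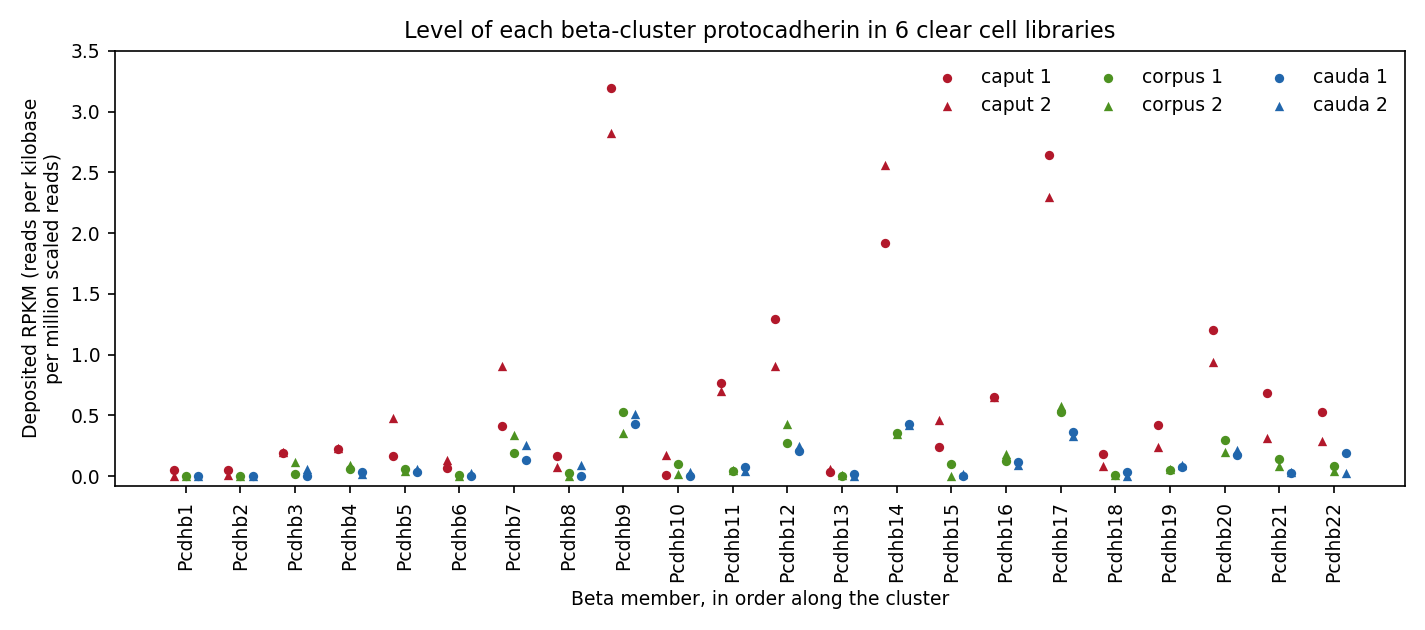
Deposited RPKM of each of the 22 beta genes in the 6 libraries, in their order along the cluster; red is caput, green corpus and blue cauda, with circles for libraries 1 and triangles for libraries 2. Pcdhb9, Pcdhb14, Pcdhb17 and, lower, Pcdhb12 and Pcdhb20 stand out in caput, and most genes lie under 0.5 RPKM in corpus and cauda.

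From one end of the duct to the other, caput against cauda, no clustered protocadherin was called lower in caput. In edgeR quasi-likelihood tests, with Benjamini-Hochberg adjustment over the 15816 genes tested, 16 of the 25 rows were called higher in caput at an adjusted p under 0.05, namely 15 of the 22 beta genes and the gamma row; over all genes tested 33.9% were called higher and 33.0% lower. Without the filter on low counts 17 of the 25 rows were called higher, as were 23.0% of all genes with a read. Of the other 9 rows, Pcdhb3 and Pcdhb6 were tested and not called (adjusted p = 0.0509 and 0.0587), although 5 and 1 of 13 alternative settings called them, and 7 had too few reads to be tested. The filter on low counts asks for about 10 reads in at least 2 libraries, and 10 of the 18 tested rows reached 10 reads in both libraries of caput only, so that their testing itself rested on caput. Both caput libraries lay above both cauda libraries in 20 of the 25 rows, against 32.3% of all genes with a read. Fold changes below are log2 values ± SE, above 0 where the region named earlier is higher; the SE is derived from the F statistic and is approximate.

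Pcdhga9 had the firmest difference, at 2.59 ± 0.14 (adjusted p = 2.61e-07); it is also the longest row, and the change was 1.88 once a trend on gene length was removed. Pcdhb17 measured 8.3 and 7.38 CPM in caput, 1.74 and 1.93 in corpus, then 1.22 and 1.09 in cauda. Its caput values lay far above the rest, and the caput to cauda change was 2.76 ± 0.27 (adjusted p = 1.56e-05). Pcdhb9 measured 9.39 and 8.47 CPM in caput, 1.62 and 1.12 in corpus, then 1.34 and 1.58 in cauda. Corpus and cauda overlapped, and caput stood above both, by 2.61 ± 0.28 against cauda (adjusted p = 2.9e-05). Pcdhb14 measured 6.33 and 8.64 CPM in caput, 1.23 and 1.22 in corpus, then 1.51 and 1.47 in cauda. For this gene cauda lay slightly above corpus, and caput exceeded cauda by 2.32 ± 0.29 (adjusted p = 7.37e-05).

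Pcdhb11 had most of its reads in caput, with 91 and 73 reads there, 3 and 4 in corpus, then 5 and 3 in cauda. In CPM this was 2.67 and 2.49 in caput against 0.291 and 0.164 in cauda, a change of 3.48 ± 0.51 (adjusted p = 0.000216). Pcdhb12, the gene with the most sequence in common with Pcdhb11, held more of its level outside caput, at 3.78 and 2.7 CPM in caput, 0.84 and 1.32 in corpus, then 0.64 and 0.763 in cauda. Its change from caput to cauda was 2.2 ± 0.42 (adjusted p = 0.00119), and whether the regional change differs between the 2 genes was not tested.

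The remaining called beta genes ranged from 1.68 ± 0.57 for Pcdhb7 to 3.96 ± 0.66 for Pcdhb21, leaving aside Pcdhb15 and Pcdhb4, whose fitted folds rest on 1 and 3 reads in cauda and are given as read ratios instead. Pcdhb15 had 59 reads in the caput libraries together and 1 in cauda, a ratio of 33.1 after scaling with a 95% exact counting interval of 5.71 to 1330. Pcdhb4 had 52 reads in caput and 3 in cauda, a ratio of 9.72 with an interval of 3.15 to 48.6. These intervals cover counting error only. Pcdhb22 was called narrowly (1.81 ± 0.71, adjusted p = 0.049), and its cauda libraries differed from each other, at 1.05 and 0.164 CPM. Of the 16 calls, 10 held under all 13 alternative settings, those of Pcdhga9 and of Pcdhb9, 11, 12, 14, 16, 17, 19, 20 and 21, while Pcdhb4, 5, 7, 15, 18 and 22 each lost the call in at least 1.

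**Figure D3:**
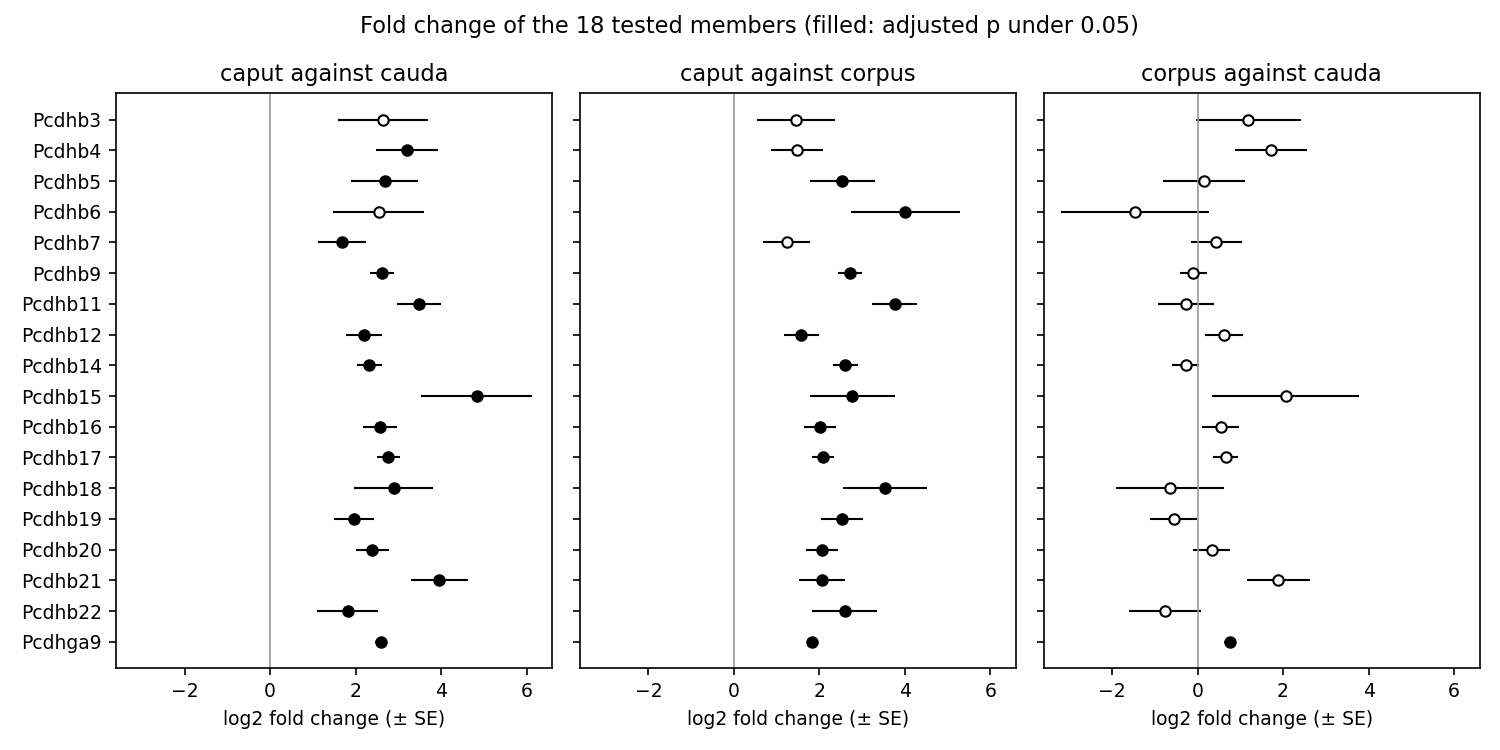
Log2 fold change ± SE of the 18 tested rows in the 3 comparisons between regions, from edgeR's quasi-likelihood fit; filled points have an adjusted p under 0.05. In both caput comparisons all 18 points lie above 0 and 16 and 15 are filled, whereas between corpus and cauda the points lie on both sides of 0 and Pcdhga9 alone is filled.

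The comparison of caput with corpus, its neighbour along the duct, shares the caput libraries with the comparison above. Here 15 of the 25 rows were called higher in caput, 14 beta genes and Pcdhga9, and none was called lower; over all genes tested 33.2% were called higher and 31.8% lower. Without the filter on low counts 16 rows were called higher, as were 22.8% of all genes with a read. Pcdhga9 changed by 1.83 ± 0.13 (adjusted p = 2.21e-06), Pcdhb9 by 2.71 ± 0.28 (adjusted p = 2.58e-05), Pcdhb14 by 2.61 ± 0.29 (adjusted p = 4.22e-05) and Pcdhb17 by 2.09 ± 0.26 (adjusted p = 7.82e-05). Pcdhb11 had the largest called fold with more than 3 reads in the lower region, 3.76 ± 0.52 (adjusted p = 0.000164). Pcdhb6, which was not called against cauda, had 12 and 20 reads in caput against 1 and 0 in corpus, a ratio of 19 with an interval of 3.17 to 773, and was called here (adjusted p = 0.0202).

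Pcdhb3, Pcdhb4 and Pcdhb7 were tested and not called between caput and corpus, with adjusted p = 0.189, 0.0528 and 0.0714, and 0, 2 and 4 of 13 alternatives called them. Pcdhb7 had the smallest fold of the tested rows in both caput comparisons, and its replicates lay apart, at 1.41 and 3.11 CPM in caput, 0.672 and 1.22 in corpus, then 0.466 and 0.927 in cauda. Both caput libraries lay above both corpus libraries in 21 of the 25 rows, against 32.2% of all genes with a read. The count of called rows rested partly on the corpus libraries: without corpus 2 it was 9 and without corpus 1 it was 10, and 8 of the 15 calls held under all 13 alternatives, those of Pcdhga9 and of Pcdhb9, 11, 14, 16, 17, 19 and 20.

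Between corpus and cauda only the gamma row was called. It was higher in corpus by 0.75 ± 0.14 (adjusted p = 0.00293), 1 of 25 rows; over all genes tested 17.3% were called higher in corpus and 18.0% lower, and without the filter 1 row and 11.3% of all genes with a read were called higher. Both corpus libraries lay above both cauda libraries in 6 of the 25 rows, against 25.6% of all genes with a read. In the test of all regions together 17 of the 18 tested rows differed, out of 25 rows, as did 75.1% of all genes tested. Of the 22 beta genes 17 were tested and none was called by edgeR in this fit, 2 had an unadjusted p under 0.05, and DESeq2 also called 0. These 2 were Pcdhb21 (1.89 ± 0.74, adjusted p = 0.0784) and Pcdhb17 (0.66 ± 0.29, adjusted p = 0.111). Pcdhb21 had 12 and 8 reads in corpus and 2 and 3 in cauda, so its corpus and cauda libraries did not overlap. Both genes were called with library totals, and Pcdhb21 also without caput 2. Their corpus to cauda read ratios had counting intervals above 1, at 3.78 (1.38 to 12.9) for Pcdhb21 and 1.59 (1.07 to 2.4) for Pcdhb17. For Pcdhb9, the most abundant beta gene, the change was -0.1 ± 0.31, and its corpus to cauda read ratio of 0.927 had an interval of 0.617 to 1.39. The intervals of Pcdhb14 (0.54 to 1.24), Pcdhb20 (0.72 to 2.19) and Pcdhb7 (0.795 to 2.37) also held 1, and 6 of the 18 tested rows had at least 10 reads in every library.

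The 5 beta genes that could not be tested had few reads even in caput. Pcdhb1 had 4 reads, all in caput 1, and Pcdhb2 had 5 and 1 reads in the caput libraries and 0 elsewhere. Pcdhb13 had 4 and 6 reads in caput and 1 each in corpus and cauda. Set against a floor of 3 reads in cauda, the scaled ratio was 1.12 for Pcdhb2 and 0.747 for Pcdhb1. These ratios leave out the counting error of the few caput reads, so neither bounds an excess in caput. In the edgeR fit without the filter, Pcdhb2 was not called against cauda (adjusted p = 0.255). The interval of the Pcdhb13 ratio (5.61, 0.798 to 243) held 1. Pcdhb8 had 13 and 5 reads in caput, 1 and 0 in corpus, then 0 and 4 in cauda. Pcdhb10 had 1 and 14 reads in caput, 5 and 1 in corpus, then 0 and 2 in cauda, and its libraries overlapped in all 3 comparisons.

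Although the summed beta level was close in the caput libraries, at 53.6 and 51.1 CPM, single genes differed more. The ratio of caput 1 to caput 2 could be formed for 21 beta genes, and its 95% exact counting interval excluded 1 for 10 of them. That interval covers counting error only, not the further spread between libraries, which is present over all genes as well. Pcdhb12, Pcdhb18, Pcdhb19, Pcdhb21 and Pcdhb22 were higher in caput 1, by 1.4 to 2.15 times, and Pcdhb5, Pcdhb7, Pcdhb10, Pcdhb14 and Pcdhb15 were higher in caput 2, with ratios from 0.734 down to 0.0614. Pcdhb5, for instance, measured 0.557 CPM in caput 1 and 1.67 in caput 2, and Pcdhb21 measured 3.08 and 1.43. Pcdhb9, Pcdhb17, Pcdhb16 and Pcdhb11 agreed within counting error. Over the 22 clustered rows compared, the chi-square per degree of freedom between the caput libraries was 7.87, against 17.2 over all genes; this measure grows with the number of reads per gene.

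**Figure D4:**
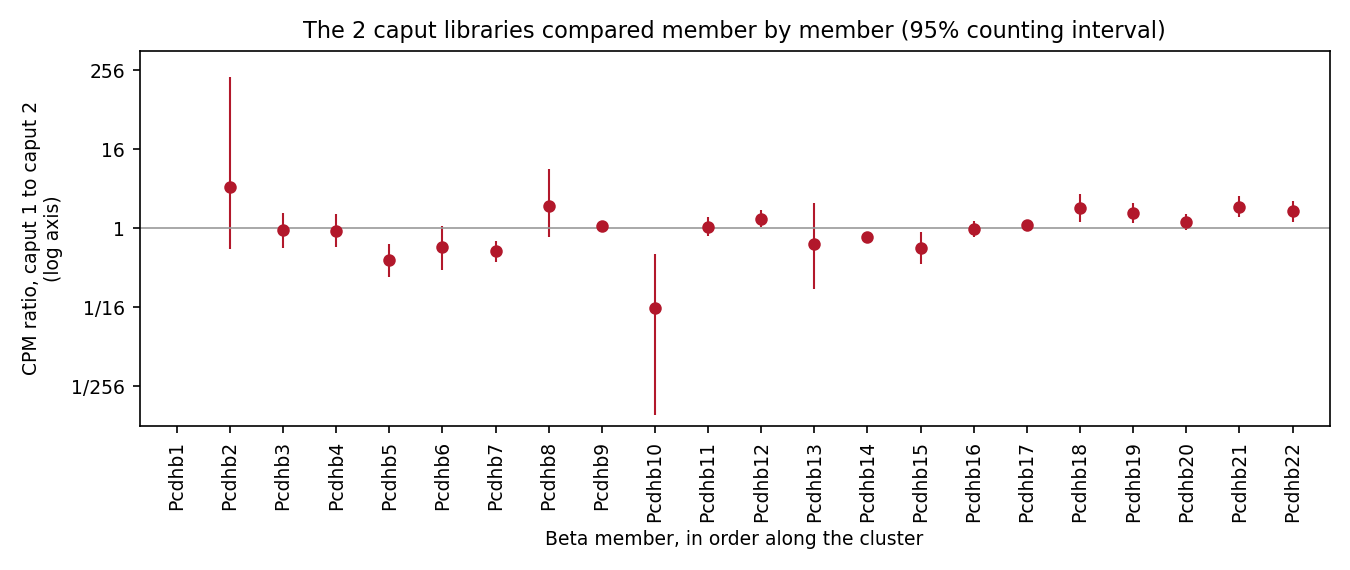
Ratio of the CPM in caput 1 to that in caput 2 for the 21 beta genes with reads in both, in their order along the cluster, on a log axis with 95% exact counting intervals. Intervals of 5 genes lie above 1, those of 5 genes below it, and those of 11 hold 1; Pcdhb1 had no read in caput 2 and is not drawn.

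Genes related to the clustered protocadherins were counted in the same fit, in which 33.9% of all genes tested were called higher in caput than in cauda and 33.0% lower. Protocadherins outside the clusters went in both directions. Of the 12 non-clustered protocadherins, 6 were tested, and 2 were higher and 1 lower in caput than in cauda. Pcdh19, a delta protocadherin, measured 1.91 and 1.67 CPM in caput and 0.291 and 0.109 in cauda (3.14 ± 0.63, adjusted p = 0.00163), and Pcdh1 was higher by 0.77 ± 0.29 (adjusted p = 0.043). Pcdh7 ran the other way in steps along the duct, from 2.55 and 1.4 CPM in caput through 5.71 and 5.83 in corpus to 15.2 and 13.5 in cauda (-2.85 ± 0.27, adjusted p = 1.24e-05).

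The regulators that choose clustered protocadherin promoters in neurons also went in both directions. Of 17 measured, 4 were called higher and 3 lower in caput than in cauda, with a median log2 change of 0.08 against 0.04 over all genes tested. Ctcf, the factor that bridges enhancer and promoter in these clusters, measured 69.6 and 64.9 CPM in caput, 73.9 and 67.2 in corpus, then 79 and 67.1 in cauda, and its regions overlapped (-0.12 ± 0.1, adjusted p = 0.325). Neither Rad21, a cohesin subunit (0.18 ± 0.13, adjusted p = 0.25), nor Smchd1, a chromatin protein that represses the clusters in mouse cells (-0.2 ± 0.13, adjusted p = 0.205), was called between caput and cauda. Rad21 was lower in caput than in corpus (-0.62 ± 0.13, adjusted p = 0.00213). Among the called members, the zinc finger protein genes Wiz (1.36 ± 0.15, adjusted p = 2.91e-05) and Zfp143 (1.62 ± 0.19, adjusted p = 5.04e-05) were higher in caput than in cauda.

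Of 15 measured genes for partners and effectors of clustered protocadherins, 9 were higher and 1 lower in caput than in cauda (median 0.65). Cyfip2, a subunit of the WAVE complex that drives actin branching, fell from 116 and 107 CPM in caput to 15.3 and 12.9 in corpus and 6.57 and 8.23 in cauda (3.91 ± 0.14 against cauda, adjusted p = 2.59e-08). Its paralog Cyfip1 changed by 1.11 ± 0.1 (adjusted p = 1.08e-05). Ptk2b, the kinase Pyk2 that alpha and gamma tails inhibit, was lower in caput, at 17.8 and 15.7 CPM against 84.6 and 66.5 in cauda (-2.17 ± 0.13, adjusted p = 5.41e-07).

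Among the 8 genes for shedding and intramembrane cleavage of protocadherins, 4 were higher and 3 lower in caput than in cauda (median 0.04). Adam10, the sheddase that cuts the extracellular part, measured 241 and 219 CPM in caput, 52.7 and 48.4 in corpus, then 54.5 and 49.7 in cauda (2.14 ± 0.09, adjusted p = 6.44e-08), so its corpus and cauda libraries overlapped and caput stood above both. Ncstn, the gene of the gamma-secretase subunit nicastrin, was lower in caput (-0.58 ± 0.07, adjusted p = 8.57e-05).

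In a list of cadherins and catenins, several of which form the adherens junctions of epithelia, 7 of 10 measured genes were higher in caput than in cauda and 0 lower (median 1.42 over the 7 tested). Ctnna1 (1.77 ± 0.07, adjusted p = 5.28e-08), Ctnnb1 (1.69 ± 0.09, adjusted p = 2.23e-07) and Cdh16 (2.47 ± 0.14, adjusted p = 2.71e-07) had the smallest adjusted p. Of 11 measured atypical large cadherins, 5 were higher and 1 lower in caput than in cauda (median 0.88 over the 9 tested), with Celsr1 (1.24 ± 0.22, adjusted p = 0.000711) and Celsr2 (0.84 ± 0.17, adjusted p = 0.00207) higher and Fat1 (-0.57 ± 0.12, adjusted p = 0.00185) lower. In caput against corpus, the 6 lists gave in the same order 1, 5, 11, 4, 6 and 5 genes higher and 2, 5, 2, 2, 0 and 2 lower, where 33.2% of all genes tested were called higher and 31.8% lower.

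**Figure D5:**
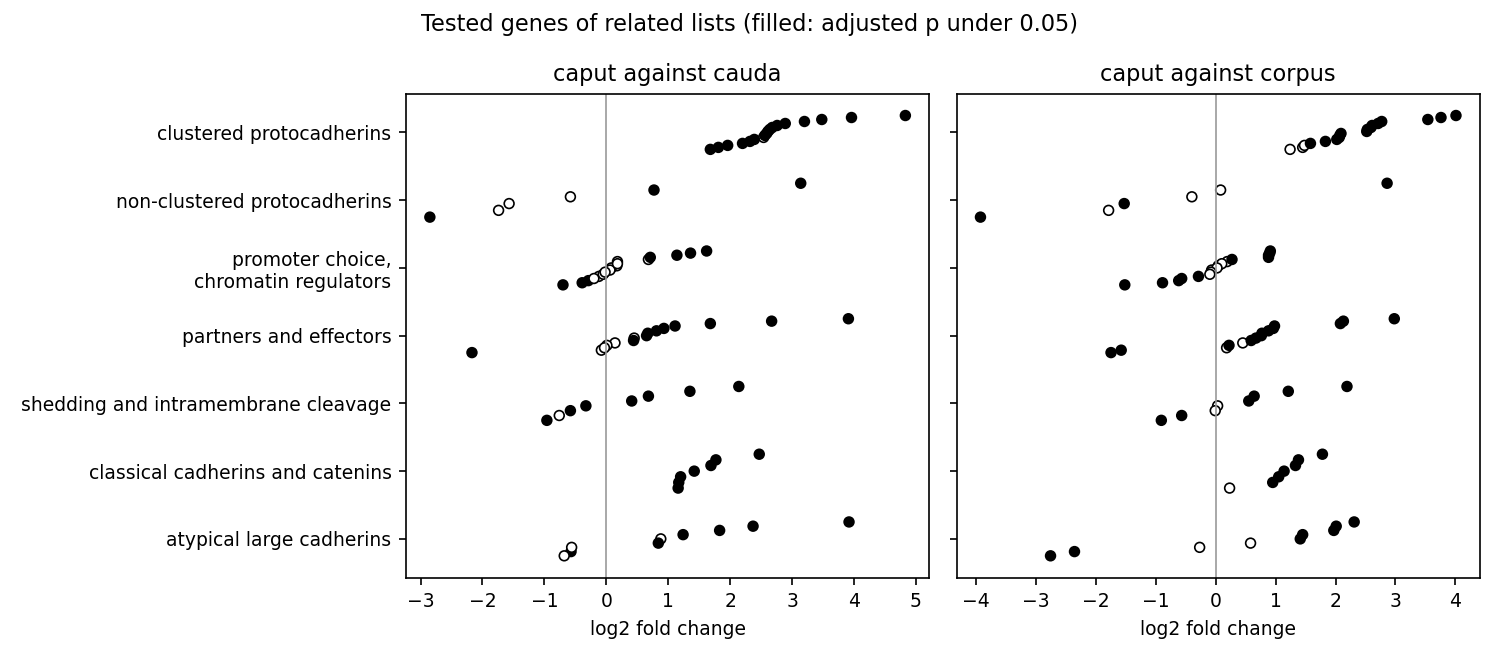
Log2 fold change of the tested genes of the clustered protocadherins and of 6 related lists, caput against cauda on the left and caput against corpus on the right; filled points have an adjusted p under 0.05. All tested clustered protocadherins lie to the right of 0 in both panels, the promoter regulators scatter around 0, and the list labelled classical cadherins and catenins lies to the right.

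Genes of other cell types were measured beside these values, and their part in the caput level of the protocadherins was not tested; their counts of called genes stand beside 33.9% higher and 33.0% lower over all genes tested. Neuronal markers, 17 measured, summed to 24.1 and 18.8 CPM in caput, 18.3 and 19.2 in corpus, then 32.4 and 44 in cauda. Uchl1 made up most of the caput sum and Th most of the cauda sum, so the order of the sums rests on these genes. Of the 17 markers, 7 were tested, and 2 were called higher and 3 lower in caput than in cauda. Snap25 had no read in either caput library, nor had Nefl and Chat in any library. Rbfox3 (3.37 and 2.49 CPM in caput, 2.85 and 2.94 in cauda) and Syt1 (2.11 and 0.99 against 1.98 and 2.29) were detected, tested and not called. The 2 higher were Uchl1, at 17 and 13 CPM in caput and 2.62 and 2.51 in cauda, and Prph, at 0.381 and 0.376 against 0 and 0.0545. The 3 lower were Th, Syp and Dbh. Th measured 0.557 and 1.2 CPM in caput against 22 and 32.7 in cauda, and Syp 0.176 and 0.137 against 1.34 and 0.654. Dbh measured 0.176 and 0.171 in caput against 0.407 and 0.545 in cauda. Schwann cell and glial markers summed to 104 and 80.2 CPM in caput, 64.7 and 55.1 in corpus, then 99 and 84.2 in cauda (1 of 10 higher, 1 lower, 4 tested), mostly from Erbb3, and Sox10 and Cdh19 had 0 reads. Mbp was the glial gene higher in caput, at 17.5 and 18.1 CPM against 2.02 and 2.18 in corpus and 5.18 and 3.65 in cauda. The one lower in caput than in cauda was S100b, at 0.205 and 0.137 CPM against 1.45 and 0.872. Endothelial markers summed to 25.3 and 31 CPM in caput, 14.9 and 13.4 in corpus, then 5.76 and 9.76 in cauda (1 of 9 higher, 1 lower, 6 tested), so that caput lay above the other regions, mostly from Vwf (24.2 and 24.9 CPM in caput). Tek was the endothelial gene lower in caput, at 0.088 and 0 CPM against 1.05 and 0.818 in cauda. Stromal markers summed to 591 and 647, 170 and 159, and 448 and 536 (1 of 12 higher, 6 lower). Dcn, the stromal gene called higher, made up most of that sum, at 570 and 583 CPM in caput, whereas Col1a1, Col1a2, Col3a1, Lum, Tagln and Cnn1 were lower there.

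Most clear cell and basal cell markers were higher in caput than in cauda, and the principal cell sum, which outside caput was mostly Crisp1, was lower. Clear cell markers summed to 8650 and 8310 CPM in caput, 2430 and 2840 in corpus, then 889 and 1130 in cauda, and 13 of 14 were higher in caput than in cauda. The other, Slc26a4, was not tested. Against corpus 12 were higher and 1 lower in caput, where 33.2% of all genes tested were called higher and 31.8% lower. The lower one was Car2, at 285 and 313 CPM in caput and 791 and 903 in corpus. Basal cell markers summed to 359 and 455 CPM in caput, 142 and 114 in corpus, then 153 and 115 in cauda (8 of 9 higher). Principal cell markers summed to 7090 and 8370 CPM in caput, 47900 and 59600 in corpus, then 78300 and 74500 in cauda, with 8 of 12 higher and 4 lower in caput than in cauda. Crisp1, 1 of the 4 lower, measured 4380 and 3290 CPM in caput, 43200 and 54000 in corpus, then 76200 and 72400 in cauda. The direction of the sum thus follows this gene and does not give the amount of principal cell RNA. Sperm markers summed to 70.5 and 265 CPM in caput, 41.2 and 87 in corpus, then 61.3 and 116 in cauda (4 of 12 higher, 10 tested), and leukocyte markers to 109 and 204, 101 and 157, and 66 and 140 (2 of 12 higher, 2 lower, 10 tested). The sperm and leukocyte sums of caput overlapped with those of cauda. For sperm this rested on Smcp, at 2.61 and 32.1 CPM in caput and 20.2 and 71 in cauda. The 4 sperm genes called higher in caput were Prm1, Prm2, Tnp2 and Odf2, and 0 were lower. Prm1 measured 7.16 and 46.1 CPM in caput against 0 and 0.109 in cauda, and Prm2 7.13 and 55.8 against 1.69 and 0.436.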

How the data were processed

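The authors deposited a count file per library, with reads per gene, and an RPKM table of all 6 with a gene length column in bases. The submitters' processing notes name STAR, HTSeq, edgeR and mm9; the sources used here do not give versions, the annotation release or the overlap rule, and the count files are named as not stranded. The deposited RPKM values equal these counts over length and a scaled library size. Summary rows of the count files stayed out of library sizes and tests (no feature 6.67% to 9.48% and ambiguous 1.39% to 1.83% of records). All genes were fitted with edgeR 4.0.16 in R 4.3.3 (filterByExpr by region, TMM, robust quasi-likelihood F tests, 3 residual degrees of freedom, two-sided) and a gene was called where its Benjamini-Hochberg adjusted p was under 0.05. The steps were also run on simulated counts in which few genes changed, and only in caput. Far more genes differ in these data, so that run does not test the scaling between regions. Alternatives were RLE size factors, library totals, DESeq2 1.42.0, no filter, 4 libraries, a replicate block, removal of a length trend, and leaving out each library. Members, gene lists and rules were chosen with earlier results of these data known. Named first were the 4 beta genes with the highest mean RPKM, up to 4 called genes per cluster and comparison with the smallest adjusted p, and up to 3 called genes per related list, with Ctcf, Rad21 and Smchd1 always; other members are given to account for all 25; a few list genes chosen this way are not reported here.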

Additional observations from a re-analysis of the deposited data

How the results depend on the processing

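Low counts limit the beta genes outside caput, and the counts of called rows moved accordingly. Against cauda the 16 calls were 13 by DESeq2, 17 without the filter, 18 with library totals and 15 with the length trend removed; against corpus the 15 calls were 12, 16, 17 and 15. Leaving out 1 library gave 13 to 14 calls against cauda, 9 to 14 against corpus, 1 to 2 between corpus and cauda, and 13 to 15 in the test of all regions together, which called 17. Where this left a region with 1 library, that library was assumed to vary like the others. Library totals gave 3 calls between corpus and cauda and moved the summed log2 ratios to 3.37, 2.86 and 0.51 for beta and 3.45, 2.42 and 1.03 for gamma (caput to cauda, caput to corpus, corpus to cauda); they also moved the median of all genes, to 0.9, 0.63 and 0.27. Without Pcdhb9 the beta ratios were 2.19 for caput to corpus and 0.3 for corpus to cauda. Leaving out a library gave ranges of 2.48 to 2.55, 2.23 to 2.3 and 0.23 to 0.26 for beta, and 2.46 to 2.71, 1.7 to 1.95 and 0.65 to 0.87 for gamma. With the length trend removed, Pcdhga9, the longest row, fell from 2.59 to 1.88 against cauda and from 0.75 to 0.49 between corpus and cauda, and stayed called.

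Of single genes, no sign changed in either caput comparison. Between corpus and cauda 12 values of beta genes that were not called did. Pcdhb9 turned to 0.17 with library totals. Leaving out 1 library gave -0.92 to 5.65 for Pcdhb3, -0.22 to 0.66 for Pcdhb5, -4.07 to 2.6 for Pcdhb6, -0.05 to 1.02 for Pcdhb7, -0.38 to 0.15 for Pcdhb9, -0.63 to 0.18 for Pcdhb11, -2.66 to 4.74 for Pcdhb15, -1.67 to 4.41 for Pcdhb18 and -1.58 to 1.07 for Pcdhb22, so leaving out 1 library was enough to turn each of these directions. The cause was not tested. A replicate block gave 17, 16 and 1 calls, adding Pcdhb3 against cauda (adjusted p = 0.0283, from 0.0129 to 0.278 over its alternatives) and Pcdhb7 against corpus (adjusted p = 0.0242, from 0.0132 to 0.413), and changed no other call between 2 regions; same-numbered libraries deviated together with correlations of 0.134 to 0.187 over 15816 genes, but the labels give the numbers no shared source, so the pairing is a hint from the data.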

Other observations

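Genes beside the clusters went in both directions between the regions. By RefSeq order, 11 genes were taken before, between or after the clusters, as the nearest tested genes whose symbol matched a deposited one. A gene deposited under another symbol would be missing from these 11. Of these, 2 were higher and 3 lower in caput than in cauda (median log2 change -0.34), where 33.9% of all genes tested were called higher and 33.0% lower, and 2 higher and 3 lower in caput than in corpus (median 0.08), where the shares over all genes were 33.2% and 31.8%. Taf7, a transcription initiation gene that lies between the beta and gamma clusters, measured 35 and 29.6 CPM in caput, 31.2 and 31.2 in corpus, then 33.4 and 28.5 in cauda (0.06, adjusted p = 0.669). Hdac3, a histone deacetylase gene and the first of the 11 after the gamma cluster, measured 97.7 and 84.2 CPM in caput, 79.1 and 72.4 in corpus, then 82 and 99.9 in cauda (0, adjusted p = 1). On the other side, Zmat2, a splicing factor gene, was lower in caput, at 60.9 and 66.8 CPM against 128 and 144 in corpus and 143 and 136 in cauda (-1.12 against cauda, adjusted p = 3.35e-06).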
